A study of Saccharomyces cerevisiae with 24 samples.

Results

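The arrays described here set budding yeast cells that lacked the Mediator kinase Cdk8 and carried a shortened RNA polymerase II (RNAPII) tail against wild type cells. The arrays were chosen by their titles: 2 were titled rpb1-ctrunc-CTD1-12+cdk8-del and 2 were titled wt-330rpm, so 4 of the 24 arrays of the series were compared. All 6388 gene probes of the array entered the comparison, of which 5326 carried 1 gene name. Each array hybridised the labelled RNA of a sample together with a common pool of wild type RNA, and every value below is the log2 ratio of the sample over that pool unless a difference is named. The series also held strains with 11, 12, 13 and 20 repeats, a strain labelled with 26 repeats, the double mutant with 11 repeats, and 8 further wild type arrays.

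The double mutant, called rpb1-CTD12 cdk8Δ here, kept 12 repeats of the C-terminal domain (CTD) of Rpb1, the largest RNAPII subunit, and had CDK8 deleted. In the study's methods the truncation was made at the native gene, with a stop codon after the last kept repeat and a NAT resistance marker behind it. The control, called wild type 330 rpm here, carried neither change and no marker is named for it. Every sample was labelled BY4742, a haploid laboratory strain, and was grown in synthetic complete medium with glucose to mid-log phase. The growth protocol names shaking at 230 rpm for all cultures, whereas the title of the control names 330 rpm, and the sources used here do not settle which speed applied. Each group held an array a, with the sample in Cy3, and an array b, with the sample in Cy5. The labels do not say whether a and b came from separate cultures, so the p-values measure the spread between arrays, which may be technical.

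The CTD is a string of near-identical repeats of a short peptide, whose phosphorylation recruits elongation and RNA processing factors to RNAPII. Cdk8 is a cyclin-dependent kinase in a detachable module of Mediator, the complex that links DNA-bound activators to RNAPII. In yeast, loss of Cdk8 is known to relieve growth defects of CTD truncations, and the kinase phosphorylates several transcription factors, among them Gcn4, Ste12 and Msn2. Msn2 and Msn4 are the paired activators of the general stress response, which includes chaperones, antioxidant enzymes and the enzymes of trehalose and glycogen storage.

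The labels were checked first on the altered genes. CDK8, listed on the array as SSN3, read -1.79 and -1.68 on the double mutant arrays and -0.12 and 0.09 on the control arrays. Its probe was above background on neither double mutant array and on both control arrays, so its level was at least 3.11-fold lower (limma, adjusted p = 3.59e-12). The other 3 genes of the Cdk8 module, SSN8, SRB8 and SSN2, did not pass the test, with differences between -0.14 and 0.18. RPO21, which encodes Rpb1, read -1.61 and -1.60 against 0.06 and 0.30, a difference of -1.79 ± 0.18 (SE, n = 2 arrays a group; adjusted p = 3.53e-07). Both altered genes were low on both double mutant arrays, with no overlap with the control. Where the RPO21 probe lies relative to the inserted stop codon and marker is not given in the sources used here, so less transcript and loss of the probed stretch cannot be told apart.

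Auxotrophic marker genes showed where the strain backgrounds differed. LYS2, a lysine synthesis gene that is deleted in BY4742, read 2.57 and 2.47 on the double mutant arrays against -0.10 and -0.08 on the control arrays (difference 2.61 ± 0.16, adjusted p = 8.48e-10). The double mutant arrays thus went against their BY4742 label at LYS2, as did both rpb1-CTD12 arrays, at 2.87 and 2.66. LYS2 was also high with 11 repeats, at 2.70 and 2.38 without CDK8 and 2.79 and 3.13 with it. Among the other 6 marker genes, HIS3 was lower by a small amount (difference -0.31, adjusted p = 0.00221), and MET17, LEU2, URA3, CAN1 and LYP1 did not pass the test, with differences from -0.10 to 0.09. On the double mutant arrays the alpha-specific mating genes STE3, SAG1, MF(ALPHA)1 and MF(ALPHA)2 read from 0.13 down to -1.24, the latter for MF(ALPHA)2 on array b, and the 7 genes specific to a cells from -0.18 for BAR1 to 0.47 for MFA2. Of the 4 alpha-specific genes, 3 passed the test as lower in the double mutant (11.2% of all probes did), STE3 by 0.53 on the log2 scale. Of the 7 a-specific genes 2 passed as higher (15.6% of all probes did), MFA1 by 0.41. Between the double mutant and rpb1-CTD12 none of the 4 alpha-specific genes passed, and STE3 read -0.54 and -0.64 in rpb1-CTD12. What the strain background contributes to the other differences was not tested.

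Across the array, 148 of 6388 probes (2.32%) were increased and 55 (0.861%) decreased in rpb1-CTD12 cdk8Δ at an adjusted p below 0.01 with a change of more than 1.7-fold (limma). They included 131 named genes that were increased and 49 that were decreased. At adjusted p under 0.01 alone, 995 probes (15.6%) were higher and 718 (11.2%) lower, but over all probes the median absolute difference was only 0.12. The 2 groups of arrays did not overlap for any of the 203 called probes, beside 43.2% of all probes, and the difference ran the same way in both dye orientations, beside 77% of all probes. Since the call itself favours such probes, this is a description of them. The a and b differences correlated at r = 0.886 across the 6388 probes, which share the same arrays and are not independent. With the loess normalization of each array fitted to spiked-in control spots alone, in place of the gene spots, the counts were 84 increased and 24 decreased. The median difference over all probes was then -0.039, beside 0.0085 in the main fit. This setting is called scaling on the spiked-in spots below. Of the 148 increased probes of the main fit, 24 changed more than 4-fold, against 2 of the 55 decreased ones.

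**Figure D1:**
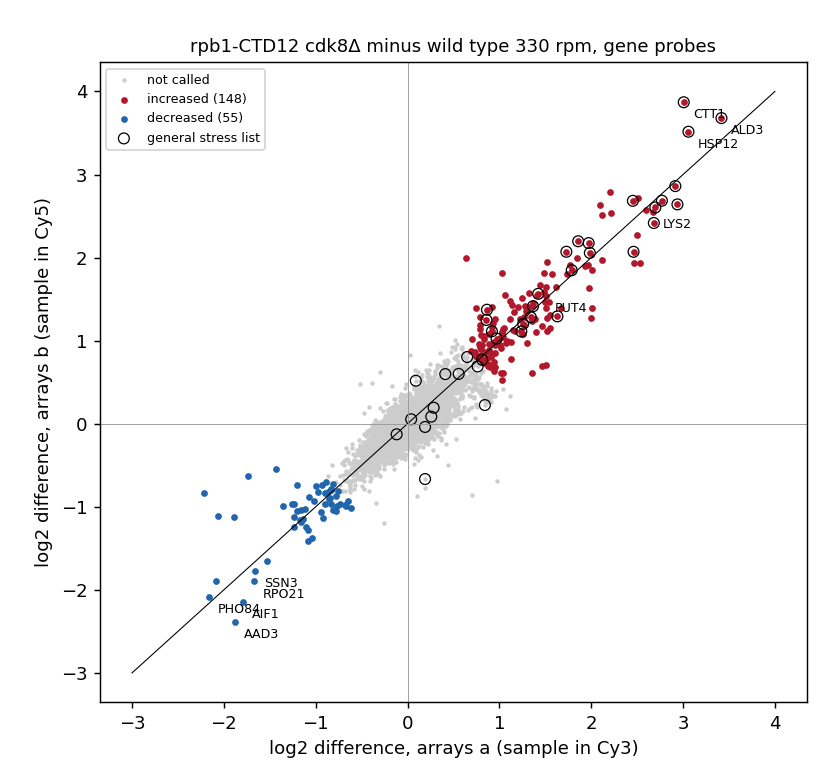
Log2 difference between rpb1-CTD12 cdk8Δ and wild type 330 rpm in the Cy3 arrays (a minus a, x axis) against the Cy5 arrays (b minus b, y axis), 1 point per gene probe. The 148 increased probes lie in the upper right and the 55 decreased probes in the lower left. The general stress genes reach the farthest, with ALD3 at 3.42 and 3.68 and CTT1 at 3.01 and 3.87.

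General stress genes made up the top of the list. Of the 38 measured genes listed under Msn2 and Msn4, 29 were higher at adjusted p under 0.01 (15.6% of all probes were) and none was lower. Of these, 26 also passed the fold threshold, against 2.32% of all probes. The median difference over the 38 genes was 1.27, beside 0.0085 over all probes. With the arrays scaled on the spiked-in spots alone, 19 of the 38 were higher. Since bulk RNA was measured, more RNA per cell and more cells in a stressed state cannot be told apart.

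ALD3, a cytosolic aldehyde dehydrogenase, changed most. It read 3.87 and 3.85 on the double mutant arrays and 0.46 and 0.17 on the control arrays, an 11.7-fold difference (3.55 ± 0.30 on the log2 scale, adjusted p = 5.5e-08). CTT1, the cytosolic catalase, read 3.65 and 4.18 against 0.64 and 0.31 (difference 3.44 ± 0.30, adjusted p = 7.71e-08). Both genes were high on both double mutant arrays, with no overlap with the control. HSP12, a membrane-protective stress protein, read 3.85 and 4.31 against 0.79 and 0.79 (difference 3.29 ± 0.32, adjusted p = 2.24e-07). HSP26, a small heat shock protein, read 4.26 and 3.99 against 1.34 and 1.13 (difference 2.89 ± 0.38, adjusted p = 9.24e-06). The HSP26 control was itself 1.57 above the 8 wild type arrays, so against those the gap was wider.

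Other stress-related genes followed. SPI1, a cell wall protein of stationary phase, rose by 2.79 ± 0.22, DDR2, a stress protein, by 2.65 ± 0.25 and RTN2, a reticulon-like membrane protein, by 2.73 ± 0.25. GRE1, a hydrophilin-type stress protein, read 2.53 and 2.30 against 0.06 and 0.23 (difference 2.27 ± 0.15, adjusted p = 1.71e-09). MSC1, PHM7, RTC3 and NQM1 rose by 2.39 to 2.57. Among the stress regulators themselves, MSN4 read 1.15 and 1.64 against 0.29 and 0.27 (difference 1.12 ± 0.09, adjusted p = 2.95e-08), while MSN2 did not pass the test (difference 0.08, adjusted p = 0.384). The paired activators thus differed in that MSN4 RNA was high on both double mutant arrays and MSN2 RNA was not. XBP1, a repressor induced by stress, rose by 1.49 ± 0.20.

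Of the 9 stress genes that did not pass, HSP30, a plasma membrane heat shock protein, was already high in the control, at 1.61 and 1.89 against 1.80 and 1.22 in the double mutant. HSP30 in the control was 1.94 above the 8 wild type arrays (adjusted p = 0.000192). HSP104, the disaggregase, read 1.21 and 0.64 against 0.56 and -0.16 (difference 0.73 ± 0.24, adjusted p = 0.0244). The other 7 were GRE3, SSA3, HSP31, ALD2, HSP78, MSN2 and NCE103, with differences between -0.12 and 0.50. Cytosolic chaperones listed under Hsf1, the heat shock factor, were mixed: of 22 measured, 3 were higher and 5 lower, beside 15.6% and 11.2% of all probes. SSA4, an inducible Hsp70, rose by 1.23, and STI1, a co-chaperone, fell by 0.49 on the log2 scale but did not pass without double mutant array a, at -0.39.

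**Figure D2:**
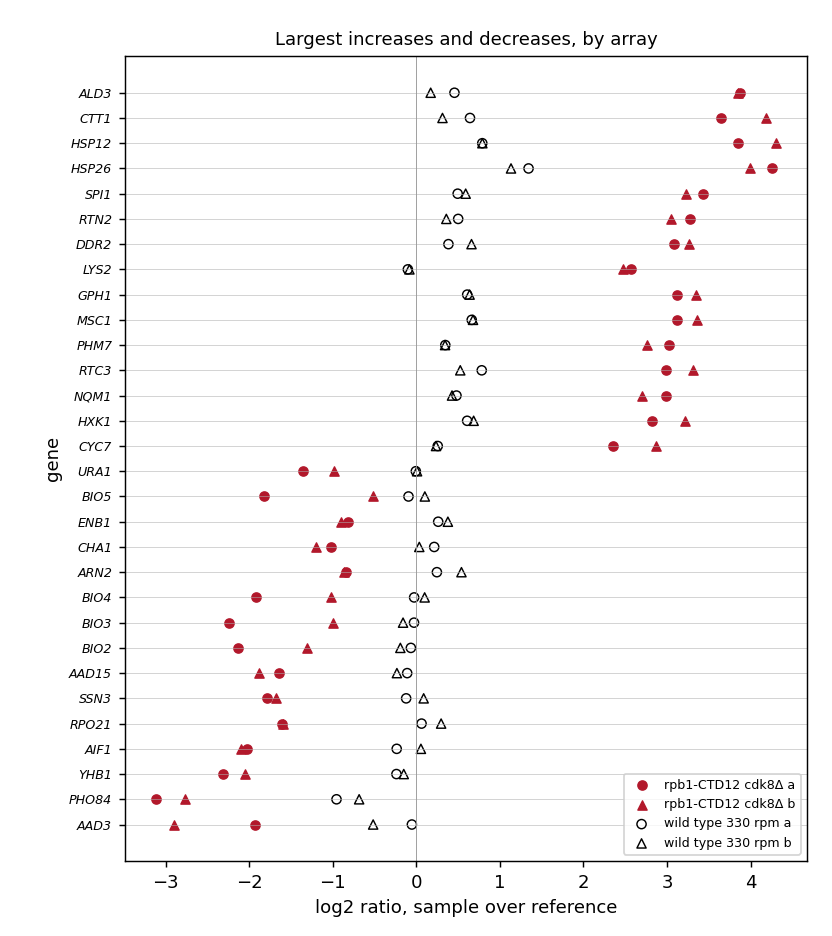
Log2 ratio of sample over reference (x axis) for the 15 named genes with the largest increases and the 15 with the largest decreases (y axis), 1 symbol per array. Filled symbols are the 2 rpb1-CTD12 cdk8Δ arrays and open symbols the 2 wild type 330 rpm arrays. LYS2, RPO21 and SSN3 mark strain differences. The groups do not overlap for any gene shown, and the biotin genes BIO2 to BIO5 are lower on array a than on array b of the double mutant.

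Reserve carbohydrate genes rose with the stress genes, and some of them stand on both lists. Of the 21 measured genes of trehalose and glycogen metabolism, 14 were higher (15.6% of all probes were) and 1, PGM1, was lower (11.2%). Of the 14, 12 also passed the fold threshold, against 2.32% of all probes. The median difference over the 21 genes was 1.04, and 6 genes were still higher with scaling on the spiked-in spots. GPH1, glycogen phosphorylase, read 3.12 and 3.35 against 0.61 and 0.64 (difference 2.61 ± 0.28, adjusted p = 8.14e-07). TPS2, which releases trehalose from its phosphate, read 2.19 and 2.25 against 0.62 and 0.45 (difference 1.69 ± 0.15, adjusted p = 9.84e-08). Genes of synthesis and of breakdown were high together on both double mutant arrays. The branching enzyme GLC3 rose by 1.07, the glycogen synthases GSY1 and GSY2 by 1.07 and 1.02 (GSY2 missed the threshold without double mutant array b, at 0.86), the debranching enzyme GDB1 by 1.33 and the trehalase NTH1 by 1.04. The phosphoglucomutase pair split: PGM2, the major isoform, rose by 2.07 ± 0.30, and PGM1, the minor one, fell by 0.48 on the log2 scale (adjusted p = 1.04e-05).

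The hexokinases split in the same way. HXK1 read 2.82 and 3.22 against 0.61 and 0.69 (difference 2.38 ± 0.33, adjusted p = 1.51e-05), and GLK1, glucokinase, rose by 1.48 ± 0.18. HXK2, the hexokinase of growth on glucose, which also takes part in glucose repression, read -0.82 and -0.83 against -0.08 and 0.13 (difference -0.85 ± 0.08, adjusted p = 1.06e-07). The 3 enzymes act on the same step, and the first pair was high where HXK2 was low on both arrays. Of 22 measured hexose transporters and their regulators, 10 were higher and 2 lower, beside 15.6% and 11.2% of all probes, but 6 and 1 without the dye term and 3 and 0 with scaling on the spiked-in spots. HXT6, a high-affinity transporter, read 1.38 and 1.89 against 0.14 and 0.38 and rose by 1.38, with a probe over the saturation signal on 1 double mutant array. HXT5, a transporter of slow growth, read 1.75 and 1.702 against 0.23 and 0.42 and rose by 1.40. HXT13 rose by 0.87 and HXT11 by 0.78, and MIG3, a repressor of the glucose response, fell by 0.59 on the log2 scale. HXT6 and HXT11 each have a near-identical relative in the genome, HXT7 and HXT9, so their probes may report more than 1 gene. Of 39 glucose-repressed genes of other carbon sources, 8 were higher and 8 lower, beside the same shares of all probes.

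Genes of the respiratory chain were raised as a group and by less. Of the 34 measured nuclear genes for respiratory complexes and ATP synthase, 30 were higher (15.6% of all probes were) and none lower. Only 4 passed the fold threshold (CYC7, INH1, COX7 and ATP15), against 2.32% of all probes. The median difference over the 34 genes was 0.57. The count of higher genes fell to 17 without the dye term and to 1 with scaling on the spiked-in spots. CYC7, the cytochrome c isoform of low oxygen, read 2.35 and 2.86 against 0.26 and 0.24 (difference 2.36 ± 0.21, adjusted p = 9.72e-08). CYC1, the main isoform, read -0.13 and -0.18 against 0.00 and -0.39 and did not pass the test (adjusted p = 0.807). So of the 2 cytochrome c genes only the minor one was high. COX7, a cytochrome oxidase subunit, rose by 0.80 ± 0.06, QCR10 of complex III by 0.75 ± 0.07 and INH1, an inhibitor of the ATPase, by 1.07 ± 0.13. HAP4, the activating subunit of the complex that drives respiratory genes, read 0.82 and 1.38 against 0.03 and 0.10 (difference 1.04 ± 0.12, adjusted p = 1.88e-06). Mitochondrial ribosomal protein genes followed with smaller differences, 19 of 42 higher and none lower, with a median of 0.19, but 4 without the dye term, 6 to 12 with 1 array left out and none with scaling on the spiked-in spots. For scale, 15.6% of all probes were higher and 11.2% lower. Of the 18 transcripts of the mitochondrial genome none passed the test in either direction. For these, the control stood 0.47 below the 8 wild type arrays in the median and 11 of the 18 were lower there (2% of all probes were), so the control is not neutral for them.

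Histone genes were also higher. Of 10 measured, 9 were higher (15.6% of all probes were) and none lower, with a median difference of 0.57. Of the 9, 4 passed the fold threshold, against 2.32% of all probes. With scaling on the spiked-in spots, however, none of the 10 passed. HHT1, a histone H3 gene, read 1.01 and 0.87 against -0.01 and -0.04 (difference 0.96 ± 0.07, adjusted p = 6.92e-09). HHF1, a histone H4 gene, read 0.82 and 1.12 against -0.09 and 0.27 (difference 0.88 ± 0.07, adjusted p = 4.74e-08). Both genes were above the control on both double mutant arrays, whereas HHO1, the linker histone H1, did not pass (difference -0.17, adjusted p = 0.0346). Each core histone is encoded by a pair of near-identical genes, which the probes may not separate. Of 25 cyclins and cell cycle regulators 5 were higher and 3 lower, near the 15.6% and 11.2% of all probes.

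Growth-related genes lay close to this control. Of 31 measured cytosolic ribosomal protein genes, 2 were lower and none higher, with a median of -0.075. Of 54 ribosome biogenesis genes, 3 were lower and none higher, with a median of -0.15. Against this control 11.2% of all probes were lower and 15.6% higher. Neither list held a gene past the fold threshold. Against the 8 wild type arrays, however, 39 of the 54 ribosome biogenesis genes were lower (22.5% of all probes were), so the count for this list depends on the wild type taken.

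**Figure D3:**
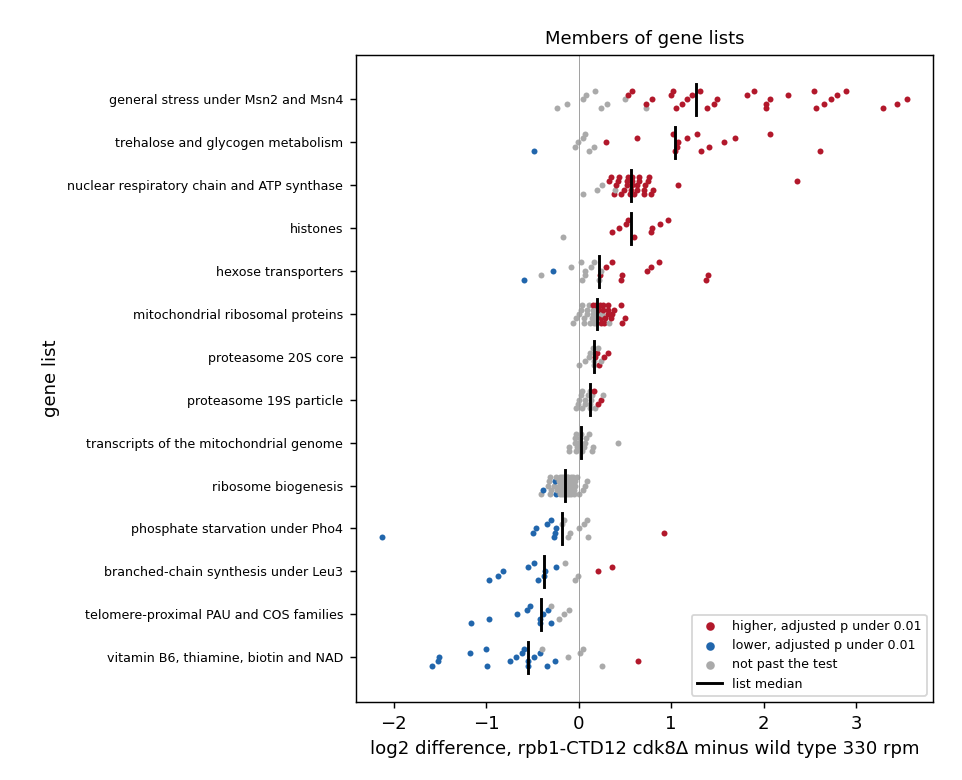
Log2 difference between rpb1-CTD12 cdk8Δ and wild type 330 rpm (x axis) for the members of 14 gene lists (y axis), 1 point per measured gene, with the median of each list as a bar. Red points were higher and blue points lower at adjusted p under 0.01, and grey points did not pass. The general stress list has its median at 1.27, the vitamin list at -0.55.

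Some called genes outside these lists were nitrogen and cell surface genes. PUT4, the proline permease, had the smallest p of all probes, reading 1.51 and 1.61 against 0.01 and 0.07 (difference 1.52 ± 0.05, adjusted p = 1.66e-13). Its probe was above background on only 1 of the 2 control arrays, and the difference was 1.97 with median centring, so its size is uncertain. ARG3, ornithine carbamoyltransferase of arginine synthesis, rose by 1.35 and ARG1, argininosuccinate synthase, by 0.99, though ARG1 did not pass without double mutant array a, at 0.56. SER3, the first enzyme of serine synthesis, rose by 1.37. Of 30 amino acid genes listed under Gcn4, 3 were higher and 9 lower, beside 15.6% and 11.2% of all probes. The flocculin genes FLO9 and FLO5 rose by 1.11 ± 0.12 and 1.08 ± 0.12, and FLO1 was above background on none of the 4 arrays. FLO9, FLO5 and FLO1 are near-identical over much of their length, so which copy a probe reports is uncertain. CWP1, a cell wall mannoprotein, rose by 1.74, and GSC2 (FKS2), the stress-induced glucan synthase, by 1.63, whereas the daughter-specific wall enzyme DSE4 fell by 0.65 on the log2 scale. HPF1, a secreted mannoprotein, rested on unequal arrays, 0.77 and 2.11 against 0.13 and 0.11.

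The largest decreases belonged to aryl-alcohol dehydrogenase, phosphate, nitric oxide and biotin genes. AAD3, a putative aryl-alcohol dehydrogenase, read -1.93 and -2.90 against -0.05 and -0.52 (difference -2.13 ± 0.14, adjusted p = 1.71e-09). AAD15 fell by 1.59 and AAD10 by 1.13 on the log2 scale, and AAD4, AAD6 and AAD14 by 0.41 to 0.58. All 6 measured genes of this family were lower on both double mutant arrays than on both control arrays. The family was singled out after its values were seen, and 43.2% of all probes had groups that did not overlap, in either direction. The 6 genes are similar in sequence, so their probes may share signal. For AAD10 the control was itself 0.77 below the 8 wild type arrays.

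PHO84, the high-affinity phosphate transporter, read -3.12 and -2.77 against -0.96 and -0.69 (difference -2.12 ± 0.23, adjusted p = 1.08e-06). The control was in turn 1.21 above the 8 wild type arrays, whose PHO84 values ran from -2.45 to -1.72. Both double mutant arrays thus lay below all 8 wild type arrays as well, and with those as the control the difference was -0.92. Of 17 measured genes listed under Pho4, the phosphate starvation activator, 8 were lower (11.2% of all probes were) and 1 higher. The count of lower genes was 4 to 5 without double mutant array b or either control array, 3 without the dye term and 1 with scaling on the spiked-in spots, and against the 8 wild type arrays 4 genes were higher, beside 26.2% of all probes. SPL2, which lowers low-affinity phosphate uptake, fell by 0.34 against this control, with a difference of 0.02 against the 8 wild type arrays, and VTC2, of the polyphosphate polymerase, by 0.50 on the log2 scale. PHM8, a nucleotidase that also responds to stress, was the exception and rose by 0.92.

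YHB1, the flavohemoglobin that detoxifies nitric oxide, read -2.32 and -2.05 against -0.24 and -0.15 (difference -1.99 ± 0.15, adjusted p = 7.68e-09). AIF1, a mitochondrial protein related to cell death effectors, read -2.03 and -2.09 against -0.24 and 0.05 (difference -1.97 ± 0.08, adjusted p = 3.59e-12). Both were low on both double mutant arrays, with no overlap with the control.

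Vitamin and cofactor genes formed the broadest group of decreases. Of 22 measured genes for vitamin B6, thiamine, biotin and NAD, 16 were lower (11.2% of all probes were), 6 of them past the fold threshold, and 1, the thiamine transporter THI7, was higher. The median difference was -0.55, and with scaling on the spiked-in spots 5 of the genes were lower. BIO2, biotin synthase, read -2.13 and -1.31 against -0.07 and -0.19 (difference -1.59 ± 0.16, adjusted p = 3.1e-07). BIO5, a transporter of biotin precursors, read -1.83 and -0.52 against -0.09 and 0.10 (difference -1.18 ± 0.18, adjusted p = 4.93e-05). Both arrays of the double mutant lay below the control, but array a was lower than array b by 0.82 to 1.30 for the 4 BIO genes, and VHT1, the biotin importer, showed the same, -1.65 and -0.49. The control stood 0.59 to 0.98 below the 8 wild type arrays for BIO2, BIO3, BIO4, BIO5 and VHT1. The NAD genes were even across arrays: BNA4, kynurenine monooxygenase, read -0.86 and -1.17 against 0.09 and -0.10 (difference -1.01 ± 0.05, adjusted p = 5.26e-11), BNA5 fell by 0.74 and the nicotinic acid transporter TNA1 by 0.68 on the log2 scale.

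Several biosynthetic pathways were lower by smaller amounts. Of 14 genes of branched-chain amino acid synthesis and uptake, 9 were lower and 2 higher, beside 11.2% and 15.6% of all probes. The counts were 5 and none without the dye term, and none either way with scaling on the spiked-in spots. The largest were OAC1, a mitochondrial oxaloacetate carrier, at -0.87, LEU1 at -0.97 and ILV5 at -0.82. The 2 higher ones, BAP2 and BAP3, encode permeases. IMP dehydrogenase, the first step from IMP to GMP, was lower at all 3 measured genes, IMD2 by 0.81, IMD3 by 0.74 and IMD4 by 0.68 on the log2 scale, though these copies are near-identical. Of 13 purine genes 6 were lower (11.2% of all probes were). SHM2, a serine hydroxymethyltransferase, led them and read -1.17 and -1.03 against -0.03 and 0.11 (difference -1.14 ± 0.08, adjusted p = 2.57e-09). URA1, dihydroorotate dehydrogenase of pyrimidine synthesis, fell by 1.17 and MET6, methionine synthase, by 0.98 on the log2 scale. ERG13, HMG-CoA synthase of sterol synthesis, fell by 0.84.

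Among the siderophore transporters, ARN2 read -0.84 and -0.87 against 0.25 and 0.54 (difference -1.25 ± 0.18, adjusted p = 3.01e-05) and ENB1 -0.82 and -0.90 against 0.26 and 0.38 (difference -1.18 ± 0.13, adjusted p = 1.08e-06). Their relatives ARN1 and SIT1 did not pass the test, with differences of 0.22 and -0.38. Of the 15 genes of iron uptake at the cell surface, 2 were higher and 2 lower, near the 15.6% and 11.2% of all probes. CHA1, a catabolic serine and threonine deaminase, fell by 1.24 on the log2 scale, and GND1, the main phosphogluconate dehydrogenase, by 1.11, while GND2, its minor relative, rose by 1.10.

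The PAU and COS gene families, which lie near chromosome ends, were lower. Of 14 measured members of the PAU seripauperins and the COS membrane proteins, 10 were lower (11.2% of all probes were) and none higher. Their median was -0.41. The count of lower genes was 5 without the dye term and 2 with scaling on the spiked-in spots. COS10 fell by 1.16 and COS5 by 0.97 on the log2 scale, and PAU4, at -0.66 and -0.68 against -0.03 and 0.01, by 0.67. Members of each family are near-identical, so the 10 calls are not 10 separate measurements. Whole chromosomes did not shift: the median difference lay between -0.07 and 0.02 on all 16 nuclear chromosomes.

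Proteasome genes and several activators and targets of other pathways lay close to the control. Proteasome subunit genes were within 0.32 of the control: of the 14 genes of the 20S core 5 were higher, with a median of 0.17, and of the 19 of the regulatory particle 3 were higher, with a median of 0.12, where 15.6% of all probes were higher. None of either set passed in a fit of the 4 compared arrays alone, and 11 and 9 were higher against the 8 wild type arrays, where 26.2% of all probes were. RPN4, their activator, read 0.08 and 0.54 against -0.15 and -0.02 (difference 0.39 ± 0.10, adjusted p = 0.00295). GCN4, the activator of amino acid genes, read -0.47 and -0.04 against 0.00 and 0.19 (difference -0.34 ± 0.08, adjusted p = 0.00273). Arrays a and b carry opposite dyes, so a gap between them includes the dye. Within each dye, RPN4 minus control was 0.23 and 0.56, and GCN4 minus control -0.46 and -0.22. For both regulators the difference was smaller than the gap between the 2 double mutant arrays, and both lost the call when 1 array was left out (RPN4 at 0.22 without double mutant array b, GCN4 at -0.28 without array a). STE12, the mating activator, did not pass (difference -0.17, adjusted p = 0.0857), nor did INO1, inositol synthase, at -0.17 and 0.10 against -0.11 and 0.03 (difference 0.01 ± 0.11, adjusted p = 0.963). UME6, MET31, LYS1, DSK2 and ZWF1 had differences between -0.02 and 0.15 and did not pass, GAL10 was above background on none of the 4 arrays, and IDH1 and ATR1 had differences of -0.24 and -0.30 that did not pass either. RPT1, a proteasome base ATPase, was 0.21 higher (adjusted p = 0.00814), and PDR5, a drug efflux pump, fell by 0.65 on the log2 scale (adjusted p = 0.00291) but lost the call without double mutant array b, at -0.39. The stress genes YRO2 and TFS1 rose by 1.31 and 1.90.

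Set against the single mutant rpb1-CTD12, which keeps CDK8, rpb1-CTD12 cdk8Δ differed at 266 probes (4.16%), 176 higher and 90 lower. This comparison uses the same double mutant arrays, so its values stand beside those above and do not add to them. The 2 strains differed at MET17, a methionine synthesis gene used as a marker, which read -0.50 and -0.10 in the double mutant and -4.68 and -4.71 in the single mutant, and what that marker contributes was not tested. Stress genes were higher here as well, 28 of 38 at adjusted p under 0.01 with a median of 1.30 (17.5% of all probes were higher), and all 34 respiratory chain genes were higher, with a median of 0.91. Proteasome genes went the other way: 9 of the 14 core genes and 16 of the 19 regulatory genes were lower than in the single mutant (14.9% of all probes were), with medians of -0.29 and -0.37. PHO84 was 2.86 below the single mutant and HXK2 1.20 below it. INO1 was 0.67 above it (adjusted p = 0.000107), DSK2 0.81 below and IDH1 0.97 below. Some genes called against the control did not pass here: LEU1, IMD2, BNA5, TNA1, ARG3 and ARG1 had differences from -0.33 to 0.21. This does not show that the 2 strains were alike at them. OAC1, lower than the control, was 0.34 above the single mutant. RPO21 read -1.22 and -1.02 in the single mutant, also below the control, and the gap of 0.48 between the 2 strains did not pass (adjusted p = 0.035).

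**Figure D4:**
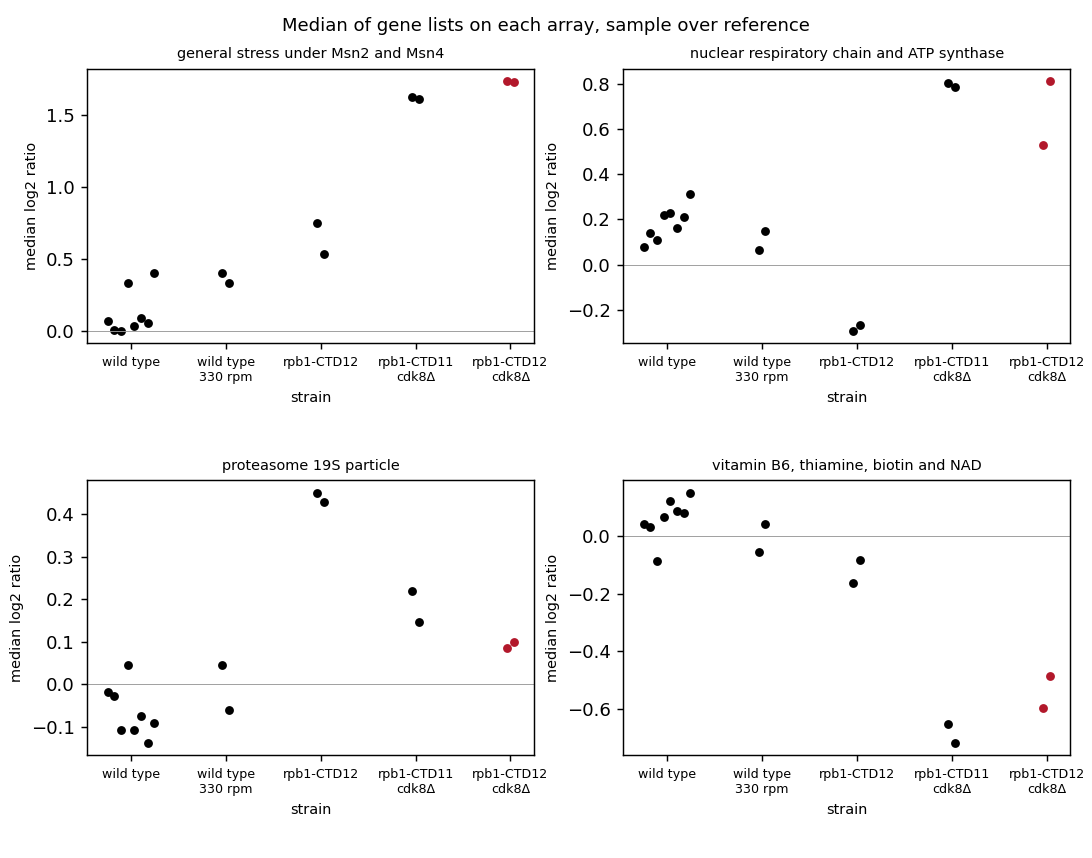
Median log2 ratio of sample over reference (y axis) over the members of 4 gene lists, 1 point per array, in wild type (8 arrays), wild type 330 rpm, rpb1-CTD12, rpb1-CTD11 cdk8Δ and rpb1-CTD12 cdk8Δ (2 arrays each; x axis). The general stress median is 1.74 and 1.73 in rpb1-CTD12 cdk8Δ, against 0.40 and 0.33 in wild type 330 rpm and 0.00 to 0.40 in wild type.

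The double mutant with 1 repeat fewer, rpb1-CTD11 cdk8Δ, differed from rpb1-CTD12 cdk8Δ at 10 probes (0.157%), a count that ran from 4 without array a of the latter to 28 without its array b. For the general stress list the per-array medians were 1.74 and 1.73 with 12 repeats and 1.62 and 1.61 with 11. Among the 10 were GRE1, higher with 12 repeats by 0.80, and HPF1, lower by 1.43. ASP3-3, an asparaginase gene of a repeated cluster, read -0.11 and 0.02 with 12 repeats and -1.60 and -1.58 with 11. A p that misses the threshold elsewhere does not show that the 2 strains were alike.

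The control was itself compared with the 8 wild type arrays, and 19 probes (0.297%) differed, or 8 without control array a and 7 without control array b. They included the stress genes HSP26, HSP30 and SIP18, which were higher in the control, and PHO84, BIO3, BIO5 and NCE103. NCE103, a carbonic anhydrase that responds to carbon dioxide, was 1.73 below wild type in the control, and against this control the double mutant did not pass the test (difference 0.05, adjusted p = 0.847). With the 8 wild type arrays as the control, 215 probes were increased and 68 decreased, and 145 of the 148 and 46 of the 55 were called again. The titles of the 8 wild type arrays carry the marks k1, k2 or k3, whose meaning the labels do not give. The fit took the 8 as separate arrays, so p-values against them measure the spread between arrays and not between k marks. The general stress median was 0.33 and 0.40 on the k3 arrays and -0.001 to 0.085 on the k1 and k2 arrays, beside 0.40 and 0.33 in the control. Shaking speed and the other differences between the 2 wild type sets cannot be told apart.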

How the data were processed

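RNA of each sample and a common wild type RNA pool were hybridised to 2-colour arrays, with the sample in Cy3 on a arrays and in Cy5 on b arrays. The files the authors deposited hold scanner intensity values for each spot and channel, and a series table of their log2 ratios, made with limma 2.12.0 per the submitters' processing notes. Here, intensities were background corrected (limma normexp, offset 50), normalized within each array by loess (span 0.3), turned to sample over reference and averaged over the spots of a probe. Control spots were left out of the tests. A probe counted as above background where its sample signal passed the 99th percentile of the empty spots of that array.

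The median sample signal was 314 to 1184 over the 24 arrays. The number of arrays limits the precision. A limma model with group and dye terms was fitted to all 24 arrays, with Benjamini-Hochberg adjustment of its p-values across the 6388 probes. Probes at adjusted p under 0.01 are called higher or lower, and those that also passed a 1.7-fold change increased or decreased. Values after ± are standard errors from this fit. The rule for named genes took the 15 largest changes in each direction that ran the same way in both dye orientations, up to 5 genes of each list by lowest p, the altered and strain marker genes, and genes the study names. Of the 144 genes named, 36 fall outside that rule and were chosen after their values were seen. Alternatives covered background, normalization, filters, model and replicates. The members and gene lists were chosen with earlier results of these data known. The fit was run on simulated data with independent noise on each array, which cannot address errors that arrays share. Gene symbols came from the platform annotation, and 1062 probes without a single gene name are counted but not named. No sequences were used here.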

Additional observations from a re-analysis of the deposited data

Results flagged for a closer look

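The double mutants with 12 and 11 repeats were compared gene by gene, and 8 genes named above differed between them in limma (rpb1-CTD12 cdk8Δ minus rpb1-CTD11 cdk8Δ, n = 2 arrays each). The asparaginase gene ASP3-3 differed by 1.55 (adjusted p = 1.22e-11). The pheromone gene MF(ALPHA)2 differed by 1.08 (adjusted p = 0.00833) and the stress gene GRE1 by 0.80 (adjusted p = 0.00701). Smaller differences were found at GND2, by 0.47 (adjusted p = 0.00716), COS5, by 0.38 (adjusted p = 0.00252), and BNA5, by 0.28 (adjusted p = 0.00806). Lower with 12 repeats were the biotin gene BIO4, at -0.82 (adjusted p = 0.00861), and the mannoprotein gene HPF1, at -1.43 (adjusted p = 0.0037). The arrays of the 12-repeat strain were uneven for MF(ALPHA)2, at -0.48 and -1.24, and for HPF1, at 0.77 and 2.11. They were also uneven for BIO4, at -1.91 and -1.02, against -0.56 and -0.74 with 11 repeats. The cause of these differences was not tested.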

How the results depend on the processing

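The counts of 148 increased and 55 decreased probes stayed within 1.5 times under all alternatives but 2: loess on the spiked-in spots alone gave 84 and 24, of which 83 and 24 were in the main sets, and dropping the fold threshold gave 995 and 718. Leaving out single arrays gave 146 to 172 increased and 51 to 65 decreased. Each letter marks a dye, so the dye term is also the replicate block: without the replicate block the counts were 138 and 53, and the a minus b deviations of the compared groups correlated at 0.803 to 0.823 over probes. The 266 calls against rpb1-CTD12 became 2067 without the fold threshold and 232 to 290 with single arrays left out. The 10 calls against rpb1-CTD11 cdk8Δ became 4 with median centring, 5 with spiked-in loess, 5 without the replicate block, 4 with the arrays of the 2 groups only, 6 without the 8 wild type arrays, 48 without the fold threshold and 4 to 28 with single arrays left out. The 19 calls between the wild type sets became 3 with spiked-in loess, 11 without the replicate block, 285 without the fold threshold and 7 to 24 with single arrays left out. Leave-outs of arrays of the other strains and the gene list counts were chosen after seeing the data. Against the 8 wild type arrays as control, the estimate of 4 named genes changed sign, but none passed the test in both directions. HSP30 (to 1.71), MET17 (to -0.39) and NCE103 (to -1.69) had not passed against wild type 330 rpm. SPL2, which had passed there at -0.34, went to 0.02. Spiked-in loess took 55 named genes below their threshold with no change of sign, and leaving out 1 array took 6 to 10. Besides those named above, these were BAP2, HIS3, MF(ALPHA)1, MF(ALPHA)2, MFA2, RPT1 and SPL2, each without 1 or more of the 4 compared arrays. The wild type control was not run for the other comparisons. The cause of these shifts was not tested. Values of probes near background, such as SSN3 in the double mutant, are bounds.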
